A study of Mus musculus with 16 samples.

Results

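The STAT genes of the mouse array, Stat2, Stat3, Stat4, Stat5a, Stat5b and Stat6, were followed through 2 steps of dendritic cell development in mice with and without a mammary tumor. All probes that carry one of these gene names were taken, which gave 6 genes and 10 probes among 39429 probes and 28669 gene names on the array. Stat3 and Stat5b had 2 probes each, Stat6 had 3, and Stat2, Stat4 and Stat5a had 1 each. All 10 probes were well above background on all 16 arrays, so every member was measured in every sample and all 10 passed the filter on dim probes. Macrophage and dendritic cell progenitors (MDPs) and common dendritic cell progenitors (CDPs) were sorted from lineage-depleted bone marrow (BM) of female C57/Bl6 mice. CDPs are the stage that follows MDPs, and they still have the potential to form plasmacytoid dendritic cells. The PyMT groups carried orthotopic tumors of the PyMT B6 line, derived from the MMTV-PyMT breast cancer model, implanted into the mammary fat pad at 7 to 8 weeks of age and grown to 1.5 cm. The Normal groups were age-matched tumor-free mice, and mice were analysed at 9 to 12 weeks. There were 4 samples in each of the 4 groups, each pooled from 2 mice, and a single implanted line stands for all tumors.

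STAT proteins are transcription factors that wait in the cytoplasm. When a cytokine binds its receptor, the receptor-bound JAK kinases phosphorylate the STATs, which pair, enter the nucleus and switch on target genes, among them SOCS inhibitors that feed back on the kinases. In myeloid progenitors STAT3 carries signals from GCSF, IL-6 and Flt3L, and STAT5 carries those of GM-CSF, while STAT2 works with IRF9 in the interferon-activated complex ISGF3. Activation is by phosphorylation, which an mRNA array does not measure, so the levels below are those of the transcripts.

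A level is the log2 processed signal of a probe minus the 75th percentile of its array, averaged over the spots of the probe. Levels of different probes are not on a common scale, so each probe was compared with itself across samples. A difference was called when limma's Benjamini-Hochberg adjusted p, over all 27433 probes tested, was under 0.05 and the fold was over 1.5. Between 58.8% and 71.5% of probes were well above background on each array, and Pearson's r between replicates ran from 0.904 to 0.977. The arrays lay on 4 slides, and slide 1 held no tumor-bearing CDP array and slide 4 no tumor-bearing MDP array. For the median tested probe 48.5% of the variance lay between slides, against 6.93% to 45.1% for the STAT probes. Values with the slide as a block, or within slides, are therefore given for each STAT gene, though not for every comparison, and counts with the block for the pathway lists. All 8 listed markers of MDPs and CDPs were above background on all 16 arrays, and their mean level ran from 2.18 to 2.40 in tumor-free and from 1.62 to 1.94 in tumor-bearing CDPs.

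Of the 6 genes, 5 lie on 2 chromosomes. On mm9, the build of the deposited spot tables, the Stat2 probe lies at chr10:127729834-127729893 and the leading Stat6 probe, the brighter of a gene's probes, at chr10:127095694-127095753, both on the plus strand. The leading Stat5b probe (chr11:100642045-100642104, minus strand), the Stat5a probe (chr11:100746373-100746432, plus strand) and the leading Stat3 probe (chr11:100749598-100749657, minus strand) follow each other in a cluster, and the Stat4 probe lies at chr1:52163802-52163861 on the plus strand. No annotation of mm9 was used here, so the exon that each probe matches is not given. Stat5a and Stat5b are close paralogs, and whether their probes share signal was not tested. The sequence of 1 probe is shown, that of a Stat6 probe whose tumor-free CDP arrays all lay above the MDP arrays (chr10:127083983-127084042, plus strand).
Stat6 probe: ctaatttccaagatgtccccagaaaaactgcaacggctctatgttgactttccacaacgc

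STAT complexes read short DNA motifs. ISGF3 binds the interferon-stimulated response element, searched here as GAAA, any 2 bases and GAAA on both strands (so also as TTTC, any 2 bases and TTTC), and STAT3, STAT5 and other STAT dimers bind TTCNNNGAA, which is its own reverse complement. The window was 250 bases before to 50 after each RefSeq transcript start on GRCm38.p6, a later build than that of the probes. The ISGF3 motif was found in the promoters of 2 of the 6 STAT genes, Stat2 and Stat4, against 3.99% of the 27025 symbols with a promoter. TTCNNNGAA was found in 0 of the 6, against 9.55% of all symbols. Of the listed ISGF3 target genes, 8 of the 15 with a promoter (53.3%) held the ISGF3 motif, and of the STAT3 target genes 5 of 16 (31.2%) held TTCNNNGAA. TTCNNNGAA was not particular to that list. It was in 3 of 9 STAT6 (33.3%), 3 of 15 ISGF3 (20.0%), 2 of 11 STAT5 (18.2%) and 1 of 6 STAT4 target genes (16.7%). A match of letters is a description and was not tested as a binding site. The promoter of Stat2 is shown from 250 bases upstream to its start (chr10:128270248-128270497, plus strand), followed by stretches of the promoters of target genes described below, on the gene's strand, with the motif and directly adjoining repeats of it in capitals.
Stat2: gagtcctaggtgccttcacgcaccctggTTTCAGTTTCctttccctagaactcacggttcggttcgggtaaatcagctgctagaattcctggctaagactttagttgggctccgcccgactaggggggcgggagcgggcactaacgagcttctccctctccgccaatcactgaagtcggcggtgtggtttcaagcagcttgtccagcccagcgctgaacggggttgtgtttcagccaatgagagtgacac
Ifit3 (chr19:34583367-34583426, plus strand): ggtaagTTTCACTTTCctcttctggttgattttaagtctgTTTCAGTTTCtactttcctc
Isg15 (chr4:156200871-156200900, minus strand): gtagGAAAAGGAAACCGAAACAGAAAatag
Bst2 (chr8:71537580-71537609, minus strand): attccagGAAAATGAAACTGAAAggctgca
Oas3 (chr5:120777715-120777744, minus strand): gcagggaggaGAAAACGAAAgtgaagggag
Socs3 (chr11:117969501-117969530, minus strand): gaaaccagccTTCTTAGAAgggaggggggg
Il1r2 (chr1:40085972-40086001, plus strand): cgggtgctttTTCAAGGAActtccgactac

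The STAT transcripts differed in how they varied. Stat2 was highest in tumor-free CDPs and lower in the other groups, Stat3 was higher in tumor-bearing mice and in CDPs, Stat4 was lower in CDPs, and Stat5a, Stat5b and Stat6 differed little with the tumor. Of the 10 STAT probes, 0 were called for the tumor change in CDPs, against 1.8% of all probes tested, and 4 had an unadjusted p under 0.05, against 13.7%. In MDPs 0 were called, against 0.0656% of all probes, and 0 had an unadjusted p under 0.05, against 10.4%. For the difference between both tumor changes 0 were called (0.0146% of all probes), with 0 at an unadjusted p under 0.05 (4.03%). CDPs against MDPs gave 0 called probes in tumor-free mice (6.1% of all probes) and 5 at an unadjusted p under 0.05 (17.1%). In tumor-bearing mice the same comparison gave 2 called probes (7.26%) and 4 at an unadjusted p under 0.05 (27.8%). With the slide as a block in limma the counts were 1 for the tumor change in CDPs (4.55% of all probes), 0 in MDPs (0.16%), 1 between stages in tumor-free mice (10.7%), 1 in tumor-bearing mice (6.31%) and 0 for the difference between the tumor changes (0.00729%). With the block 5 STAT probes had an unadjusted p under 0.05 for the tumor change in MDPs (18.9% of all probes) and 3 in CDPs (24.1%). Between stages these counts were 7 in tumor-free mice (28.5%) and 8 in tumor-bearing mice (22.6%), and 0 for the difference between the tumor changes (5.39%). The counts of calls are at most 2 among 10 probes, several of them of the same gene.

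**Figure D1:**
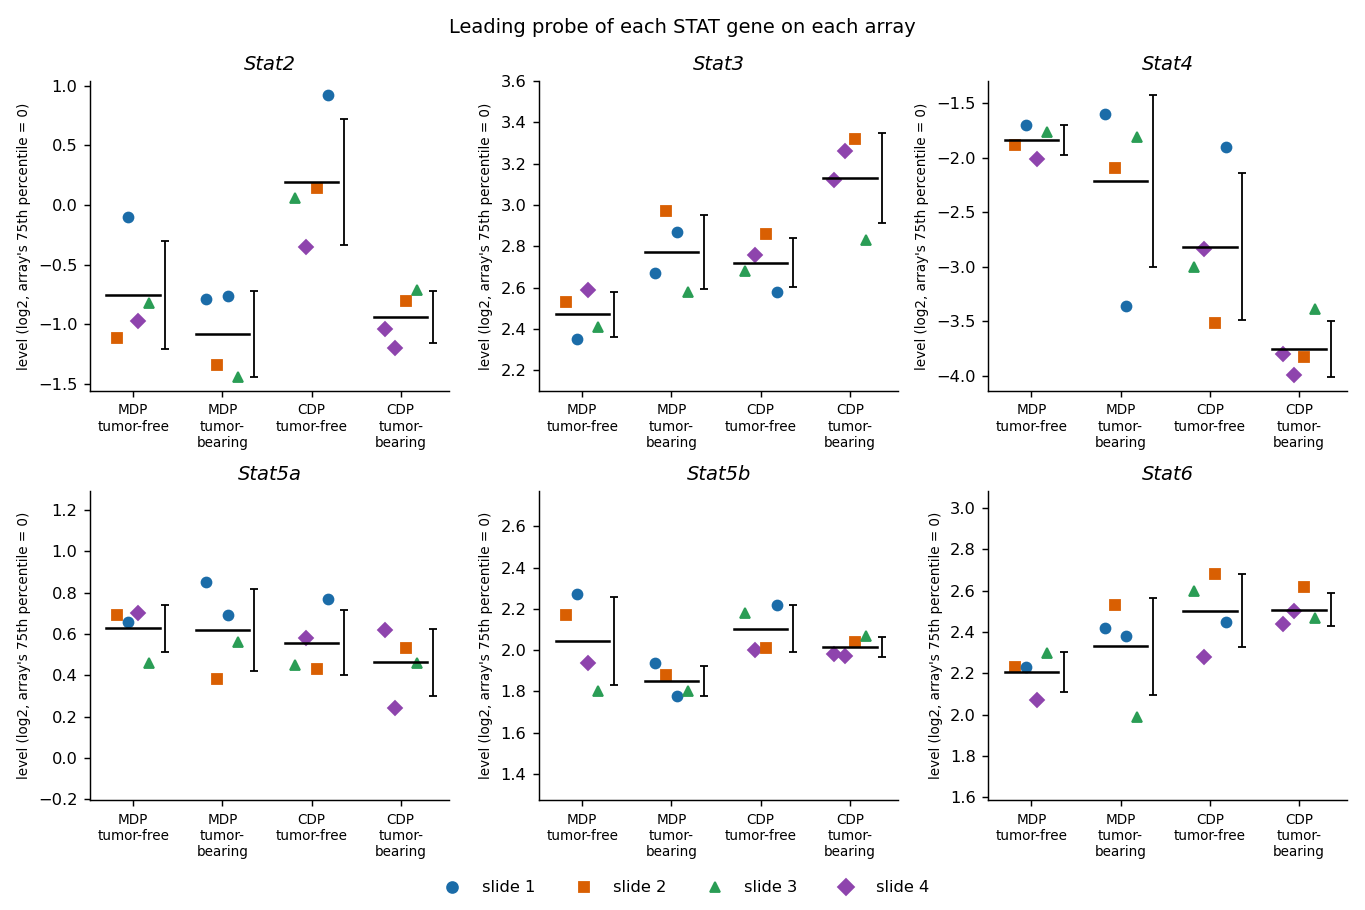
Level of the leading probe of each STAT gene (log2 signal relative to the 75th percentile of the array, y axis) in the 4 groups (x axis), with 1 point per array, colored and shaped by slide, and the mean and SD of 4 arrays in black. The tumor-free CDP mean is highest for Stat2, the tumor-bearing CDP mean is highest for Stat3 and lowest for Stat4, and the groups overlap widely for Stat5a.

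Stat2, the partner of IRF9 in type I and type III interferon signaling, showed the largest tumor difference of the family in CDPs. With the slide block Stat4 came close, at -0.85 against -0.87 for Stat2. In tumor-free CDPs the Stat2 levels were 0.06, -0.35, 0.14 and 0.92 in replicates 2 to 5, and in tumor-bearing CDPs they were -1.04, -1.20, -0.81 and -0.71. All tumor-bearing CDP arrays lay below all tumor-free ones. Such a gap between groups was seen for 2 of the 10 STAT probes, and for 11.1% of all probes tested. The mean was 0.19 ± 0.53 (SD, n = 4) without and -0.94 ± 0.22 (SD, n = 4) with a tumor, a difference of -1.13 ± 0.28 (SE) on the log2 scale, or 2.19-fold, with a 95% interval from -1.74 to -0.53. The difference missed the threshold over all probes (limma adjusted p = 0.0605), and an exact two-sided permutation test of this probe alone gave p = 0.0286, the smallest that 4 against 4 samples allow. Within slides 2, 3 and 4 tumor-bearing CDPs were lower than tumor-free ones, with differences of -0.95, -0.77 and -0.77. When the slide entered limma as a block, this became -0.87 ± 0.12 (SE), 1.83-fold, and was called (adjusted p = 0.00367), also with each of the 8 CDP arrays left out in turn.

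In MDPs the Stat2 levels overlapped between groups, as those of all 10 STAT probes did, and groups without overlap were seen for 5.2% of all probes. They were -1.12, -0.10, -0.97 and -0.82 in tumor-free mice and -0.79, -1.34, -0.76 and -1.44 in tumor-bearing mice, replicates 2 to 5. The high tumor-free value of -0.10, like the 0.92 in CDPs, came from slide 1, which gave the highest array of both tumor-free groups. The mean difference was -0.33 ± 0.28 (SE; limma adjusted p = 0.647), and the slide block gave -0.59 ± 0.12 (adjusted p = 0.0835). On each of the 3 slides with both groups the tumor-bearing MDPs were lower, by differences of -0.67, -0.22 and -0.62. The tumor changes in CDPs and MDPs were not shown to differ, since their difference was -0.80 ± 0.40 (SE; adjusted p = 0.748) without the block and -0.28 (95% interval from -0.66 to 0.09; adjusted p = 0.949) with it.

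Between the stages, Stat2 was higher in CDPs than in MDPs of tumor-free mice by 0.95 ± 0.28 (SE), 1.93-fold, on the log2 scale (limma adjusted p = 0.0657). CDPs were higher on all 4 slides, by 1.03, 1.26, 0.88 and 0.61, and the slide block gave 0.95 ± 0.11 and a call (adjusted p = 0.000365). In tumor-bearing mice the stages stood closer, at a difference of 0.14 (adjusted p = 0.735), while the block gave 0.66 ± 0.13 and a call (adjusted p = 0.0110), from 0.53 and 0.73 within the 2 slides that held both. That call was lost without CDP replicate 5 of the tumor-bearing group (adjusted p = 0.0526) and with the slide as a random block (0.56, adjusted p = 0.0526), while the tumor-free call held with each of 8 arrays left out. In order of the group means Stat2 ran from tumor-free CDPs (0.19) through tumor-free MDPs (-0.75) and tumor-bearing CDPs (-0.94) to tumor-bearing MDPs (-1.08), and the last 3 overlapped one another.

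**Figure D2:**
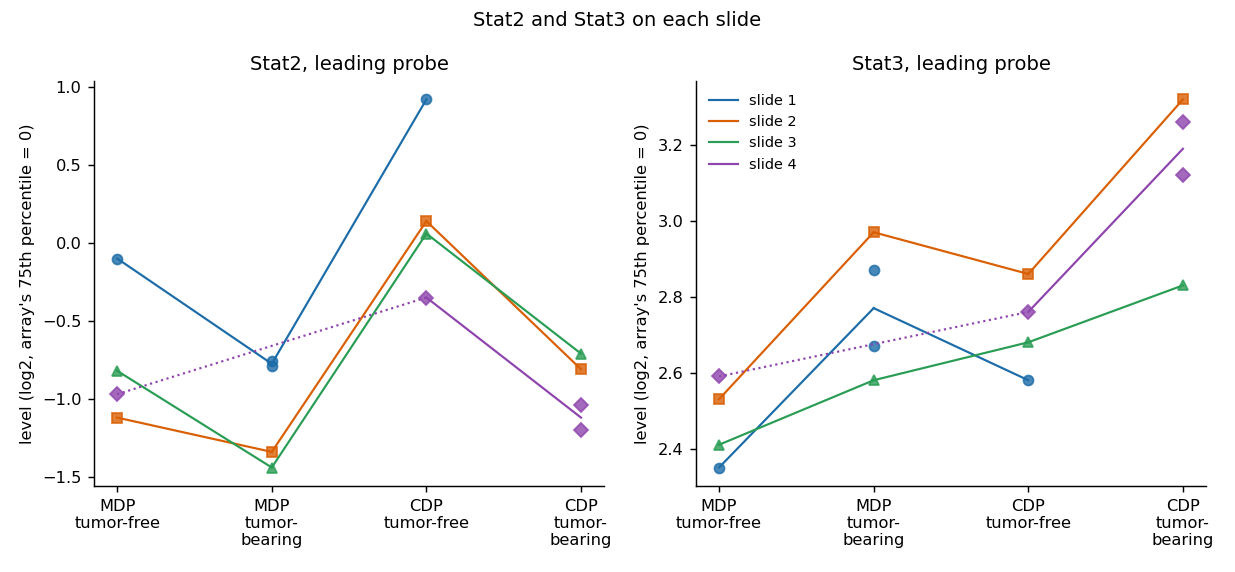
Levels of the Stat2 probe and the leading Stat3 probe (log2 signal relative to the 75th percentile of the array, y axis) by group (x axis), with 1 point per array and a line joining the means of each slide, dotted where slide 4 holds no tumor-bearing MDP array. Within slides 2, 3 and 4 tumor-bearing CDPs were lower than tumor-free CDPs for Stat2, by differences of -0.95, -0.77 and -0.77, and higher for Stat3, by 0.47, 0.15 and 0.43.

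Stat3, which transmits GCSF and IL-6 signals and is required for Flt3L-driven dendritic cell development, was higher with a tumor in both stages, but the differences were under 1.5-fold. Its leading probe read 2.68, 2.76, 2.86 and 2.58 in tumor-free CDPs and 3.12, 3.26, 3.32 and 2.83 in tumor-bearing CDPs, so that 1 tumor-bearing array fell within the tumor-free range. The means of 2.72 ± 0.12 and 3.13 ± 0.22 (SD, n = 4) differed by 0.41 ± 0.14 (SE), or 1.33-fold (limma adjusted p = 0.181). The slide block gave an adjusted p of 0.0497 at 1.29-fold, short of the fold required for a call. In MDPs the values were 2.53, 2.35, 2.59 and 2.41 without and 2.67, 2.97, 2.87 and 2.58 with a tumor, a difference of 0.30 ± 0.14 (SE; adjusted p = 0.485, and 0.137 with the block). The ranges touched only at the lowest tumor-bearing MDP array, which was on slide 3. Within slides the tumor-bearing arrays were higher in 3 of 3 slides in CDPs (0.47, 0.15 and 0.43) and in 3 of 3 in MDPs (0.41, 0.45 and 0.16).

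The second Stat3 probe moved with the first across the 16 arrays, at a Pearson r of 0.92. It read 1.32, 1.52, 1.64 and 1.31 in tumor-free CDPs and 1.78, 1.94, 2.12 and 1.68 in tumor-bearing CDPs, groups that did not overlap, at a difference of 0.43 (limma adjusted p = 0.251). In MDPs it read 1.19, 0.92, 0.92 and 0.96 without and 0.91, 1.63, 1.45 and 1.16 with a tumor (difference 0.29, adjusted p = 0.554). Between stages this probe was higher in tumor-bearing CDPs than in tumor-bearing MDPs by 0.59 ± 0.17 (SE), 1.51-fold, and was called (adjusted p = 0.0467). With the slide block the fold was 1.44 and the call was lost (adjusted p = 0.0361). The leading probe gave 0.36 for this comparison (adjusted p = 0.133) and 0.25 in tumor-free mice (adjusted p = 0.443). By the means of the leading probe the groups ran from tumor-free MDPs (2.47) through tumor-free CDPs (2.72) and tumor-bearing MDPs (2.77) to tumor-bearing CDPs (3.13), and each neighboring pair in that order overlapped.

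Stat4, which carries IL-12 signals in lymphocytes and is expressed in dendritic cells, was lower in CDPs than in MDPs, most clearly in tumor-bearing mice. In tumor-bearing mice MDPs read -1.6, -2.09, -3.36 and -1.81 and CDPs read -3.80, -3.99, -3.83 and -3.39. The CDP arrays all lay below the MDP arrays, with MDP replicate 4, at -3.36, next to the CDPs. The means of -2.22 ± 0.79 and -3.75 ± 0.26 (SD, n = 4) differed by -1.54 ± 0.37 (SE), 2.90-fold, and the difference was called (limma adjusted p = 0.0202). Non-overlapping groups were seen in this comparison for 4 of the 10 STAT probes and 14.1% of all probes. Within slides 2 and 3 the differences were -1.74 and -1.58, whereas the slide block gave -1.37 with an adjusted p of 0.0861. The call was also lost without MDP replicate 2 (adjusted p = 0.0655), without CDP replicate 2 (0.0577) and without CDP replicate 3 (0.0590).

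In tumor-free mice Stat4 read -1.88, -1.70, -2.01 and -1.76 in MDPs and -3.00, -2.84, -3.52 and -1.90 in CDPs. The stage difference was -0.98 ± 0.37 (SE; limma adjusted p = 0.152), with CDPs lower on all 4 slides, by differences from -1.65 to -0.21. The single high CDP array, at -1.90, was on slide 1. Comparing tumor-bearing with tumor-free mice, CDPs differed by -0.94 ± 0.37 (adjusted p = 0.252, and 0.216 with the block) and MDPs by -0.38 (adjusted p = 0.669). The value in MDPs rested on replicate 4 of the tumor-bearing group, since it was 0.00 without it.

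Stat5a and Stat5b, which act downstream of GM-CSF, IL-3 and growth hormone receptors, stayed within narrow ranges. Stat5a lay between 0.24 and 0.85 on all 16 arrays, with group means of 0.63 ± 0.11 and 0.62 ± 0.20 in tumor-free and tumor-bearing MDPs and 0.56 ± 0.16 and 0.46 ± 0.16 in the corresponding CDPs (SD, n = 4 each). The tumor difference was -0.10 (95% interval from -0.40 to 0.21; limma adjusted p = 0.83) in CDPs and -0.01 (95% interval from -0.31 to 0.29; adjusted p = 0.980) in MDPs. With the slide block it was -0.06 (-0.31 to 0.20) in CDPs and -0.05 (-0.31 to 0.20) in MDPs. The intervals leave room for differences of less than 1.5-fold.

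The leading Stat5b probe averaged 2.04 ± 0.22 and 1.85 ± 0.08 in MDPs without and with a tumor and 2.10 ± 0.12 and 2.02 ± 0.05 in CDPs (SD, n = 4 each). Its tumor differences were -0.09 ± 0.13 in CDPs and -0.19 ± 0.13 (SE) in MDPs, and the second Stat5b probe gave -0.10 and -0.18. None of these 4 differences passed limma's test, the smallest adjusted p being 0.578. In tumor-bearing mice the leading probe read 1.94, 1.88, 1.78 and 1.8 in MDPs and 1.98, 1.97, 2.04 and 2.07 in CDPs. The groups did not overlap, but the difference was 0.17 ± 0.13 (SE; limma adjusted p = 0.360) and the second probe's groups overlapped. For this comparison the slide block gave 0.28 and 0.27 on the leading and second probes (limma adjusted p = 0.181 and 0.170). The r between the probes across the arrays was 0.59.

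Stat6, the mediator of IL-4 and IL-13 signals, had higher means in CDPs than in MDPs of tumor-free mice on its 3 probes, though none was called. The leading probe read 2.23, 2.23, 2.07 and 2.30 in tumor-free MDPs and 2.60, 2.28, 2.68 and 2.45 in tumor-free CDPs, a difference of 0.30 ± 0.14 (SE; limma adjusted p = 0.305). The second gave 0.45 ± 0.16 with no overlap (adjusted p = 0.131, and 0.0247 with the slide block). The third, at chr10:127097689-127097748, read 0.60, 0.56, 0.61 and 0.45 in MDPs and 1.09, 1.01, 1.06 and 1.30 in CDPs, and its difference of 0.56 ± 0.13 (SE) had an adjusted p of 0.0211. At 1.48-fold it fell just short of the fold required for a call, and the block gave an adjusted p of 0.00518. CDPs were higher on 4 of 4 slides with each of the 3 probes. In tumor-bearing mice the stage differences were 0.18, 0.33 and 0.35 (adjusted p = 0.371, 0.187 and 0.12). In the tumor-free comparison 3 of the 10 STAT probes had groups without overlap, against 13.3% of all probes.

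With the tumor, the leading Stat6 probe differed by 0.00 ± 0.14 in CDPs (95% interval from -0.30 to 0.31) and by 0.12 ± 0.14 (SE) in MDPs (95% interval from -0.18 to 0.43). The other probes gave 0.06 and -0.11 in CDPs and 0.17 and 0.10 in MDPs. None of the 6 tumor differences passed limma's test without a block, the smallest adjusted p being 0.659. With the slide block the leading probe gave 0.05 in CDPs and 0.08 in MDPs (limma adjusted p = 0.827 and 0.741). The r across arrays between pairs of the 3 probes was 0.82, 0.70 and 0.60.

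**Figure D3:**
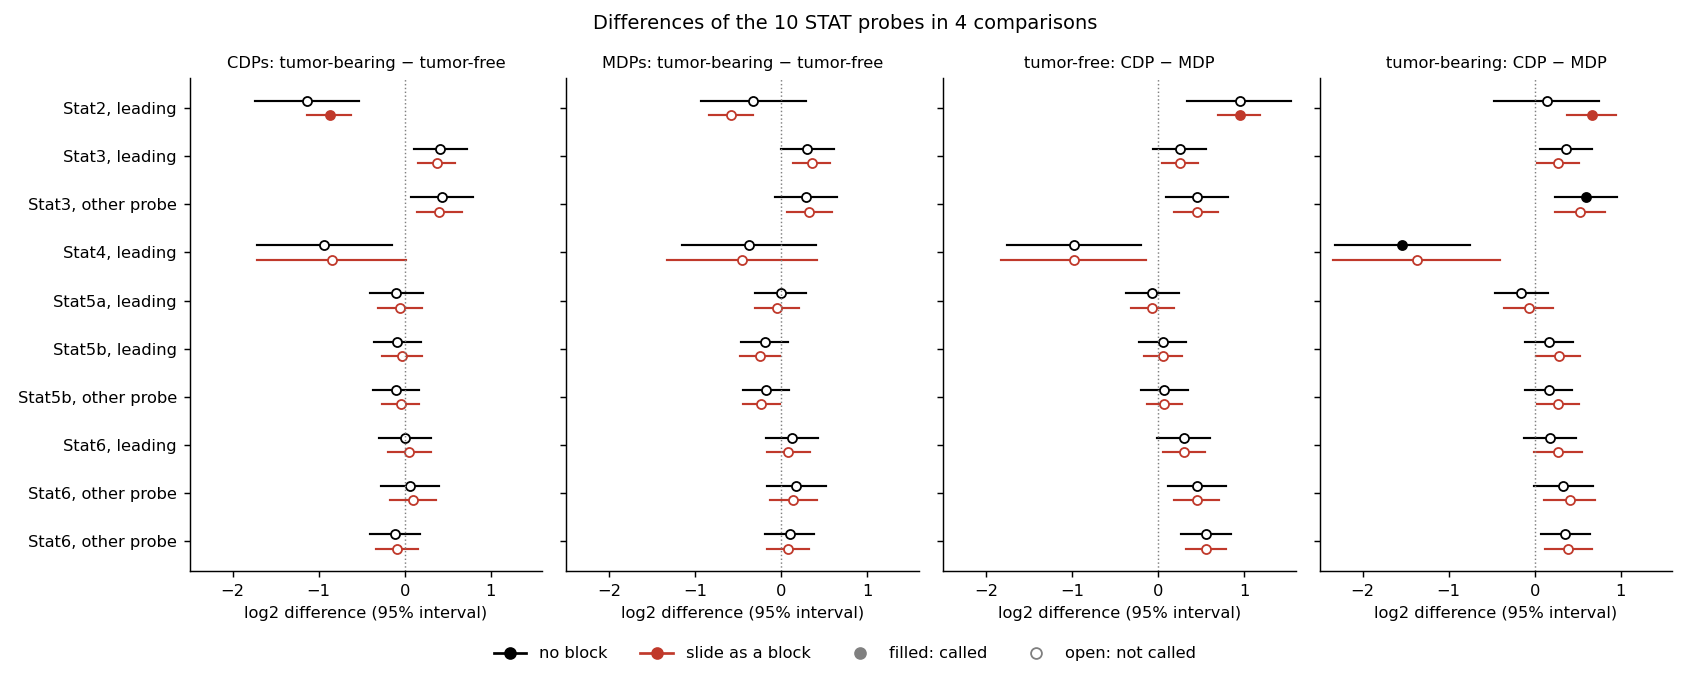
Differences in log2 level (x axis) with 95% intervals for the 10 STAT probes (y axis) in 4 comparisons, from limma without a block (black) and with the slide as a block (red), with filled symbols for calls at an adjusted p under 0.05 and a fold over 1.5. Stat2 was called with the block for the tumor change in CDPs (-0.87) and between stages in tumor-free and tumor-bearing mice (0.95 and 0.66), and Stat4 (-1.54) and the second Stat3 probe (0.59) were called without the block in tumor-bearing mice.

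Across the 16 arrays, after removal of slide means with the group means kept, the leading probes of Stat3 and Stat4 ran in opposite directions (Pearson r = -0.83), as did Stat4 and Stat6 (-0.76), while Stat3 and Stat6 (0.70) and Stat2 and Stat5b (0.64) ran together. These values describe arrays that share groups and scaling, and no test was made. The genes most like Stat2 among 20160 genes were Ngfr, Smpd1 and Rab33b, each at r = 0.97, though without removal of the slides r was 0.71, 0.34 and 0.80. Nearest to Stat3 were Nsf, Txndc5 and Myd88 (0.98, 0.98 and 0.97, or 0.57, 0.68 and 0.68 with slides kept). Nearest to Stat4 were 5430411C19Rik, C030034L19Rik and Tsacc, which kept their likeness with slides in (0.95, 0.95 and 0.93, or 0.91, 0.94 and 0.93). Nearest to Stat5a were Zfp869, B330016D10Rik and Slc16a14 (0.87, 0.85 and 0.84, or 0.80, 0.72 and 0.65 with slides kept), and nearest to Stat6 were Mob1a, Ahr and C3 (0.91, 0.91 and 0.90, or 0.74, 0.79 and 0.56). For Stat5b they were BC025920, Chmp2b and ENSMUST00000132914 (0.92 each), but with slides kept r was 0.72, 0.88 and 0.01.

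The kinases, receptor chains, inhibitors and cofactors around the STATs were described from listed genes, each by its brightest tested probe. All their counts stand against 1.8% of all probes called for the tumor change in CDPs and 0.0656% in MDPs. With the slide block these shares were 4.55% and 0.16%. Of the 4 JAK kinases only Jak3, the partner of the common gamma chain, rose with the tumor in CDPs, from -0.22 ± 0.25 to 0.64 ± 0.15 (SD, n = 4), a change of 0.86 (limma adjusted p = 0.0242, and 0.0191 with the block). Jak1, Jak2 and Tyk2 gave -0.22, -0.44 and -0.45 and were not called, and in MDPs 0 of the 4 were called (Jak3 0.48, adjusted p = 0.388). Jak2, which serves the GM-CSF receptor, was higher in CDPs than in MDPs in both tumor-free (1.09, adjusted p = 0.00125) and tumor-bearing mice (0.73, adjusted p = 0.0162).

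Of the 28 receptor chains tested, 0 rose and 2 fell with the tumor in CDPs, and 0 were called in MDPs. With the slide block 1 rose, Il2rg, the common gamma chain (0.70, adjusted p = 0.0386), 2 fell, and 0 were called in MDPs. Those that fell without a block were Kit, the stem cell factor receptor and one of the listed progenitor markers, whose gate in this sort is not given in the sources used here (-1.34, limma adjusted p = 0.00427), and Il12rb2, the signaling chain of the IL-12 receptor that activates STAT4, (-0.97, adjusted p = 0.0252). Csf3r, the GCSF receptor, named here for the cytokine the study followed and after its values were seen, gave 0.13 (adjusted p = 0.872) in CDPs and -0.27 (adjusted p = 0.666) in MDPs. Of 18 inhibitors and phosphatases, Socs3, the feedback inhibitor of gp130 and GCSF receptors, rose in CDPs from -2.56 ± 0.53 to 0.82 ± 0.91 (SD, n = 4), by 3.38 (adjusted p = 0.00851). Dusp2, a dual-specificity phosphatase, fell (-0.76, adjusted p = 0.0413), and so did Socs5 (-1.35, adjusted p = 0.0415), which was above background on 2 of 4 tumor-bearing CDP arrays. The block called the same number in each direction in CDPs. In MDPs 0 of the 18 were called with or without it, with Socs3 at 0.74 (adjusted p = 0.612). Of 8 cofactors 0 were called in either stage, with or without the block, and Irf9, the DNA-binding partner of STAT2, gave -0.59 (adjusted p = 0.341) in CDPs and -0.36 (adjusted p = 0.604) in MDPs.

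Many ISGF3 target genes, the interferon-induced genes downstream of STAT2, had lower means in tumor-bearing mice. Of 19 tested, 12 were above background on all 16 arrays, and all 12 of these had a lower mean with a tumor in CDPs and in MDPs, with median changes of -0.74 and -0.85 against 0.08 and -0.13 for all genes. Of the 19, 2 fell by limma's test in CDPs, Usp18 (-1.65, adjusted p = 0.0193) and Bst2 (-0.69, adjusted p = 0.0373), against 1.8% of all probes. In MDPs 0 were called, against 0.0656% of all probes, and 11 had an unadjusted p under 0.05, against 10.4%. With the slide block 5 of the 12 were called lower in CDPs, against 4.55% of all probes, which added Isg15, Mx2 and Oas3. In MDPs 0 were called with the block, against 0.16%. Ifit3 was also called lower in CDPs with the block, but it was tested only through tumor-free CDPs, so its fall is not counted. The other large differences in CDPs were those of Mx2 (-1.64, adjusted p = 0.0540), Oas3 (-1.43, adjusted p = 0.0826) and Irf7 (-1.37, adjusted p = 0.333). Ifit3 passed the filter through tumor-free CDPs, where 4 arrays were above background, against 1 array of tumor-bearing CDPs, 1 of tumor-free MDPs and 0 of tumor-bearing MDPs, so that it gives no difference in MDPs. In MDPs Mx2, above background on all arrays, gave -1.47 (adjusted p = 0.261). Irf7 (-2.23), Oas2 (-1.78), Mx1 (-1.73) and Ddx58 (-1.68) were above background on 2, 3, 3 and 1 of 4 tumor-bearing MDP arrays, so the sizes of their differences are uncertain.

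Other marker lists also differed with the tumor, and not all in the same direction. The 7 erythroid markers tested had median changes of -0.86 in CDPs and -0.91 in MDPs, with 0 called in either, and 2 of the 7 were above background on all arrays. Their mean level ran from -4.11 to -1.61 in tumor-free and from -3.75 to -3.19 in tumor-bearing CDPs. Of the 9 T and NK cell markers tested, 5 had a higher and 4 a lower mean in CDPs, at a median change of 0.14. Called lower in CDPs were 2, against 1.8% of all probes, and the median in MDPs was -0.67. Their mean level ran from -2.23 to -1.83 in tumor-free and from -3.05 to -2.31 in tumor-bearing CDPs. Klrd1 (means of -1.80 and -6.37) and Cd96 (-2.61 and -6.51) were each above background on 1 of 4 tumor-bearing CDP arrays. Klrd1 passed the filter only through tumor-free CDPs, so it gives no independent sign of a fall. Bst2 also marks plasmacytoid dendritic cells, whose 7 markers averaged from -0.66 to -0.12 in tumor-free and from -0.77 to -0.52 in tumor-bearing CDPs. The part of these cells in the ISGF3 differences was not tested. In bulk samples fewer cells of a type and less RNA per cell cannot be told apart.

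STAT3 target genes stood higher in tumor-bearing mice. Of 19 tested, 15 had a higher mean in CDPs and 17 in MDPs, and 18 of the 19 were above background on all arrays. The median changes were 0.55 in CDPs and 0.60 in MDPs, against 0.08 and -0.13 for all genes. The calls below stand against 1.8% of all probes in CDPs and 0.0656% in MDPs, or 4.55% and 0.16% with the slide block. Il1r2, the decoy receptor of IL-1, rose by 4.59 in CDPs (limma adjusted p = 0.00638), as did Socs3, Lcn2 (2.70, adjusted p = 0.00186) and Mmp8 (1.87, adjusted p = 0.00360), while Ccnd1, cyclin D1, fell (-1.91, adjusted p = 0.0378). In MDPs Lcn2, lipocalin 2, alone was called (2.16, adjusted p = 0.0489). S100a8 (2.19 and 1.95 in CDPs and MDPs) and, in MDPs, S100a9 (2.81), Pim1 (1.62) and Il1r2 (1.6) did not pass. With the slide block 7 were called higher in CDPs, which added Bcl3, Pim1 and S100a8, 1 lower, and 1 higher in MDPs. Lcn2, Mmp8, S100a8 and S100a9 are granule and granulocyte markers. The 12 granulocyte markers tested averaged from -0.11 to 1.11 in tumor-free and from 0.85 to 1.4 in tumor-bearing CDPs, with 3 called higher, and 8 of the 12 were above background on all arrays. In CDPs 9 had a higher and 3 a lower mean (Ltf, Ngp and Camp), at a median change of 0.72. In MDPs 8 had a higher and 4 a lower mean, at a median change of 0.13. Their mean level ran from -0.53 to 1.01 in tumor-free and from 0.02 to 1.12 in tumor-bearing MDPs. Without those 4 genes 11 of 15 were higher in CDPs, with 2 called up and 1 down and a median of 0.41, and 13 of 15 in MDPs, with 0 called and a median of 0.37.

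Targets of the other STATs did not move in 1 direction. Their calls stand against 1.8% of all probes in CDPs and 0.0656% in MDPs, or 4.55% and 0.16% with the slide block. Of 14 STAT5 targets, 11 were above background on all arrays, of which 0 rose and 1 fell in CDPs, Bcl2, a survival factor (-1.0, limma adjusted p = 0.0133). Spib, a transcription factor of plasmacytoid dendritic and B cells, was also called lower (-3.13, adjusted p = 0.0210). Spib was tested only through tumor-free CDPs and was above background on 2 of 4 tumor-bearing CDP arrays. Its fall is therefore not counted, and its size is uncertain. Pim1 (1.37, adjusted p = 0.0513), Cish (1.24) and Socs2 (0.89) were not called, and 0 were called in MDPs. Cish was above background on 1 of 4 tumor-free CDP arrays, so the size of its difference is uncertain. The slide block added Pim1 (1.36, adjusted p = 0.0227) as higher and Ccnd2 (-0.67, adjusted p = 0.0221) as lower in CDPs, and 0 in MDPs. Of 11 STAT6 targets, Cd209a, a dendritic cell lectin, fell with the tumor in both stages (-3.25 in CDPs, adjusted p = 0.00255, and an adjusted p of 0.0114 in MDPs), and in MDPs it was not well above background in tumor-bearing mice and was at least 2.85-fold lower. Chil3 rose in MDPs (3.21, adjusted p = 0.0489) and gave 2.08 in CDPs (adjusted p = 0.0573), whereas with the slide block the call in MDPs was lost (3.23, adjusted p = 0.0516) and CDPs were called (2.06, adjusted p = 0.0477). Of 7 STAT4 targets Il18rap, a chain of the IL-18 receptor, rose in CDPs (1.87, adjusted p = 0.00495), and it was called with the block too (1.78, adjusted p = 0.00687). The 9 markers of conventional dendritic cells, which include Cd209a, averaged from -0.10 to 0.29 in tumor-free and from -1.81 to -0.61 in tumor-bearing CDPs, and the 8 monocyte and macrophage markers from 0.28 to 0.71 and from 1.04 to 1.52. Their part in the STAT and target differences was not tested.

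**Figure D4:**
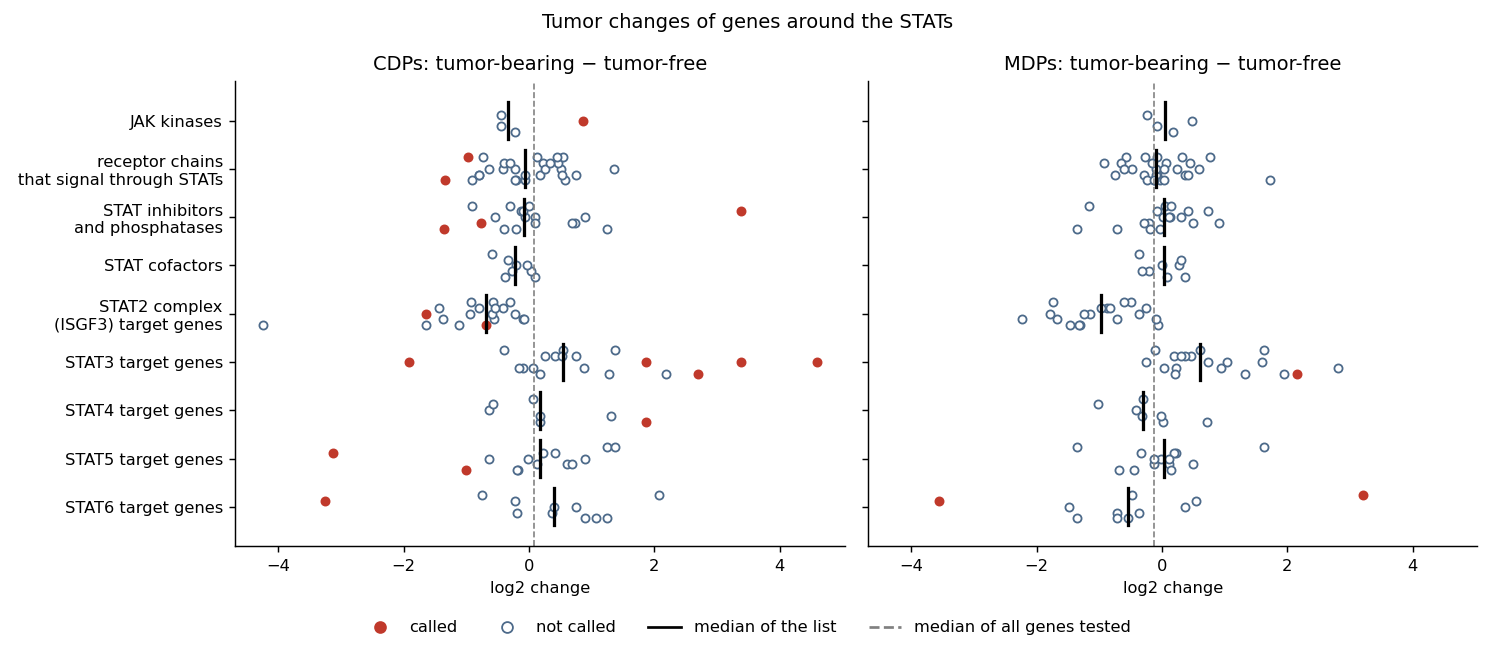
Log2 tumor change (x axis) of each tested gene of 9 STAT pathway lists (y axis) in CDPs and MDPs, with calls from limma without a block filled red, the list median as a black bar and the median of all genes as a dashed line. The ISGF3 targets lie below 0 in both stages (medians -0.69 and -0.97 over the 19 tested, of which Ifit3 was not measured above background in tumor-bearing MDPs) and most STAT3 targets above it (medians 0.55 and 0.60), while the medians of the JAK kinases, receptors, inhibitors and cofactors lie between -0.33 and 0.05.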

How the data were processed

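RNA of 16 samples was amplified and hybridized by the authors to one-color (Cy5) Agilent mouse arrays. The deposited spot tables of Feature Extraction 11.5.1.1 give background-corrected, detrended intensity without scaling between arrays, and the deposited value table gives quantile-normalized log2 signals, used as an alternative. The labels name limma without a version or settings. Groups come from the sample titles.

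From the intensity, log2 minus the 75th percentile of the array was taken, outlier spots were dropped (182 to 289 per array) and repeated spots of a probe were averaged. Probes well above background on 3 of 4 arrays of any group were tested (27433 of 39429) with limma 3.58.1 in R 4.3.3, on 4 group means. Calls needed an adjusted p under 0.05 and a fold over 1.5. A gene is led by its brightest probe. Values were given for JAK kinases, for receptor and inhibitor genes that passed, and for up to 5 of the largest changes per target list, with genes that passed added. The members and lists were chosen with earlier results of these data known. Scripts were tested on simulated data. Promoters are from RefSeq on GRCm38.p6. The number of arrays limits the precision. Alternatives were background correction, scaling, filter, slide and replicate blocks, the t-test of the methods and each array left out. Sequences of the other 9 probes are not reported here.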

Additional observations from a re-analysis of the deposited data

Results flagged for a closer look

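Of 40 sets of 4 arrays (10 probes in 4 groups), 3 held an array whose gap to the nearest of the others exceeded Dixon's 95% critical share of the range of the set, and chance alone gives about 1 in 20. All 3 were in tumor-free MDPs. The second Stat3 probe read 1.19 in replicate 2, with the gap at 0.830 of the range. Stat5a read 0.46 in replicate 5 (0.847 of the range). The second Stat5b probe read 1.4 in replicate 4 (0.866 of the range), while the leading Stat5b probe had no such array. None of these probes was called for the tumor change in MDPs with or without the slide block.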

How the results depend on the processing

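Over all probes 494 were called for the tumor change in CDPs and 18 in MDPs as reported, 1248 and 44 with the slide as a block, 1444 and 204 with the slide as a random block, 56 and 5 when only the compared groups were fitted, 2081 and 1026 by the methods' t-test before adjustment and 3 and 1 after it, and 155 to 581 and 1 to 46 with each array left out (1993 between stages in tumor-bearing mice, and 3288 without MDP replicate 5 of that group), and the median of all probes shifted from -0.12 to 0.00 in MDPs and from 0.19 to 0.00 between stages in tumor-bearing mice under quantile normalization. Of the STAT probes, 0 were called for the tumor change in CDPs as reported, and 1 under normexp background correction, the filter to probes above background on all 16 arrays, the slide block, the slide as a random block and the slide block with quantile normalization, and 2 by the methods' t-test before adjustment (0 to 0 with each array left out). Between stages in tumor-free mice 0 were called as reported, 1 under quantile normalization, the filter to all 16 arrays, the deposited value table, the slide block and the random block, 2 under normexp, the unadjusted t-test and the slide block with quantile normalization, and 0 to 2 with each array left out. In tumor-bearing mice 2 were called as reported, 1 under normexp, quantile normalization, median scaling over probes detected everywhere, no filter, the value table, the slide block, the replicate block, the random block and the slide block with quantile normalization, 0 when only the compared groups were fitted and by the t-test after Benjamini-Hochberg adjustment, and 0 to 2 with each array left out. The tumor change in MDPs and the difference of the tumor changes gave 0 STAT calls under every alternative run. The random block and the slide block with quantile normalization were chosen after seeing the data. The cause of these moves was not tested.

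Directions changed for small differences. The Stat3 difference of tumor changes was -0.02 under quantile normalization and in the value table. Stat5a turned to 0.02 between stages in tumor-bearing mice and to 0.24 for the difference of tumor changes under normexp, to 0.00 for the latter with the slide block and quantile normalization, and to 0.02 for the tumor change in MDPs under median scaling. Stat6 with the tumor in CDPs was -0.06 under normexp, -0.14 under quantile normalization and in the value table and -0.05 with the slide block and quantile normalization, which gave -0.02 in MDPs. With each array left out, Stat4 with the tumor in MDPs ran from -0.59 to 0.00, Stat5a in MDPs from -0.08 to 0.07, Stat5b between stages in tumor-free mice from -0.02 to 0.13 and Stat6 with the tumor in CDPs from -0.07 to 0.06.

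Same-numbered arrays correlated in their deviations from group means at r of -0.63 to 0.48. Such arrays often lay on different slides and the deviations keep the slide differences. They therefore cannot decide whether a replicate number pairs the samples. The replicate block called 0 STAT probes for the tumor change in CDPs and 1 between stages in tumor-bearing mice, and 371 and 10 of all probes for the tumor change in CDPs and MDPs.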
